A study of Drosophila melanogaster with 4 samples.

Results

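Mitochondria carry their own ribosome, which translates the few messages of the mitochondrial genome, nearly all of them for subunits of the respiratory chain. Its RNA comes from the mitochondrial genome, but every one of its proteins is encoded in the nucleus, made in the cytosol and imported, so the large subunit (genes named mRpL) and the small subunit (genes named mRpS) depend on many unlinked nuclear genes. The large subunit joins amino acids and holds the exit tunnel of the new peptide, and the small subunit binds the message and reads its codons. In Drosophila, hypomorphic mutations of small subunit genes such as tko and bonsai slow larval growth.

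All probe sets whose single annotated gene symbol starts with mRpL or mRpS were taken, which gave 71 of 18769 probe sets other than controls. They stand for 69 of the 11982 genes with a probe set of their own, 44 of the large and 25 of the small subunit. The mRpL47 and mRpS11 genes have a pair of probe sets each. RefSeq lists 73 such genes in this fly, and the 4 without a probe set of their own are mRpL34, mRpL37, mRpL53 and mRpS10.

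RNA of whole larvae of Drosophila melanogaster, in the third instar and kept at 25 °C, was put on 1-colour Affymetrix arrays. Control larvae had the genotype C564-Gal4; UAS-GFP, and experimental larvae had the genotype C564-Gal4; UAS-Gyc76C. Both therefore carry the C564-Gal4 driver, which in the labels serves for expression in the fat body and is known to act in other larval tissues as well, and the controls express green fluorescent protein in place of the transmembrane receptor guanylate cyclase Gyc76C. Each genotype had 2 arrays, named biological replicas, and nothing in the labels says how many larvae went into each.

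Values are probe set signals, computed by the authors with MAS5 and with the same trimmed mean, 500.02, on all 4 arrays. Differences were tested with limma over 11261 probe sets at or above a mean signal of 46.3, and a gene was called at an adjusted p under 0.05. The labels were checked on Gyc76C itself, whose brightest probe set, shared with CG42637, had signals of 1047 and 928 with GFP and of 16050 and 20993 with Gyc76C (18.6-fold, adjusted p = 5.79e-05). A dimmer probe set of the same annotation lay the other way, at 91.9 and 64.9 against 9.42 and 30.6, and was not called (log2 fold change -2.19, adjusted p = 0.0951), and the remaining one, at 17.0 and 14.6 against 2.43 and 4.69, was under the filter. The median log2 fold change over the 9259 genes tested, each taken at its brightest probe set, was -0.17, so a value of 0 lies above the middle of the array. The ratio of 3′ to 5′ signal, a sign of RNA quality, differed by control: for eIF-4a it was 4.04 and 4.06 on the GFP arrays and 3.12 and 3.61 on the Gyc76C arrays, and for actin at least 1.18 on the GFP arrays and 1.08 on both Gyc76C arrays. For GAPDH the arrays overlapped (1.82 and 2.00 against 1.64 and 1.85), and for 18S rRNA the order was the opposite (6.46 and 6.28 against 8.84 and 15.7). The part of RNA quality in the results below was not tested.

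All 69 genes passed the filter on dim signals, and their probe sets ran from 159 to 3464 on single arrays. In Gyc76C larvae 42 of the 69 genes rose, 0 were called lower and 27 were not called. The background for this count is the share of all tested genes called higher, 11.6% (25.7% in either direction), or 16.7% of the 3937 genes whose mean signal lay within the range of the members. At an unadjusted limma p under 0.05, 56 members passed. The share of all genes passing at that level was not computed, so this count has no background beside it. The changes were small: the median log2 fold change was 0.57, a 1.49-fold difference, or 0.74 above the median of all genes. The middle 50% of members lay between 0.43 and 0.76, with 32 at 1.5-fold or more (14.3% of all genes) and 3 at 2-fold or more (6.77% of all genes).

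Direction was far more even than the number called. The log2 fold change was above 0 in 68 of 69 members, against 39.2% of all genes. In 66 members the lower Gyc76C array still exceeded the higher GFP array, as in 26.7% of all genes and 32.6% of those in the same signal range; the reverse held for 0 members and 42.6% of all genes. The other 3 were mRpL27, mRpL42 and mRpS5, whose groups overlapped. Replicate arrays were close for the 69 genes: the brighter GFP array exceeded the dimmer by a median of 1.10-fold and the brighter Gyc76C array by 1.05-fold.

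**Figure D1:**
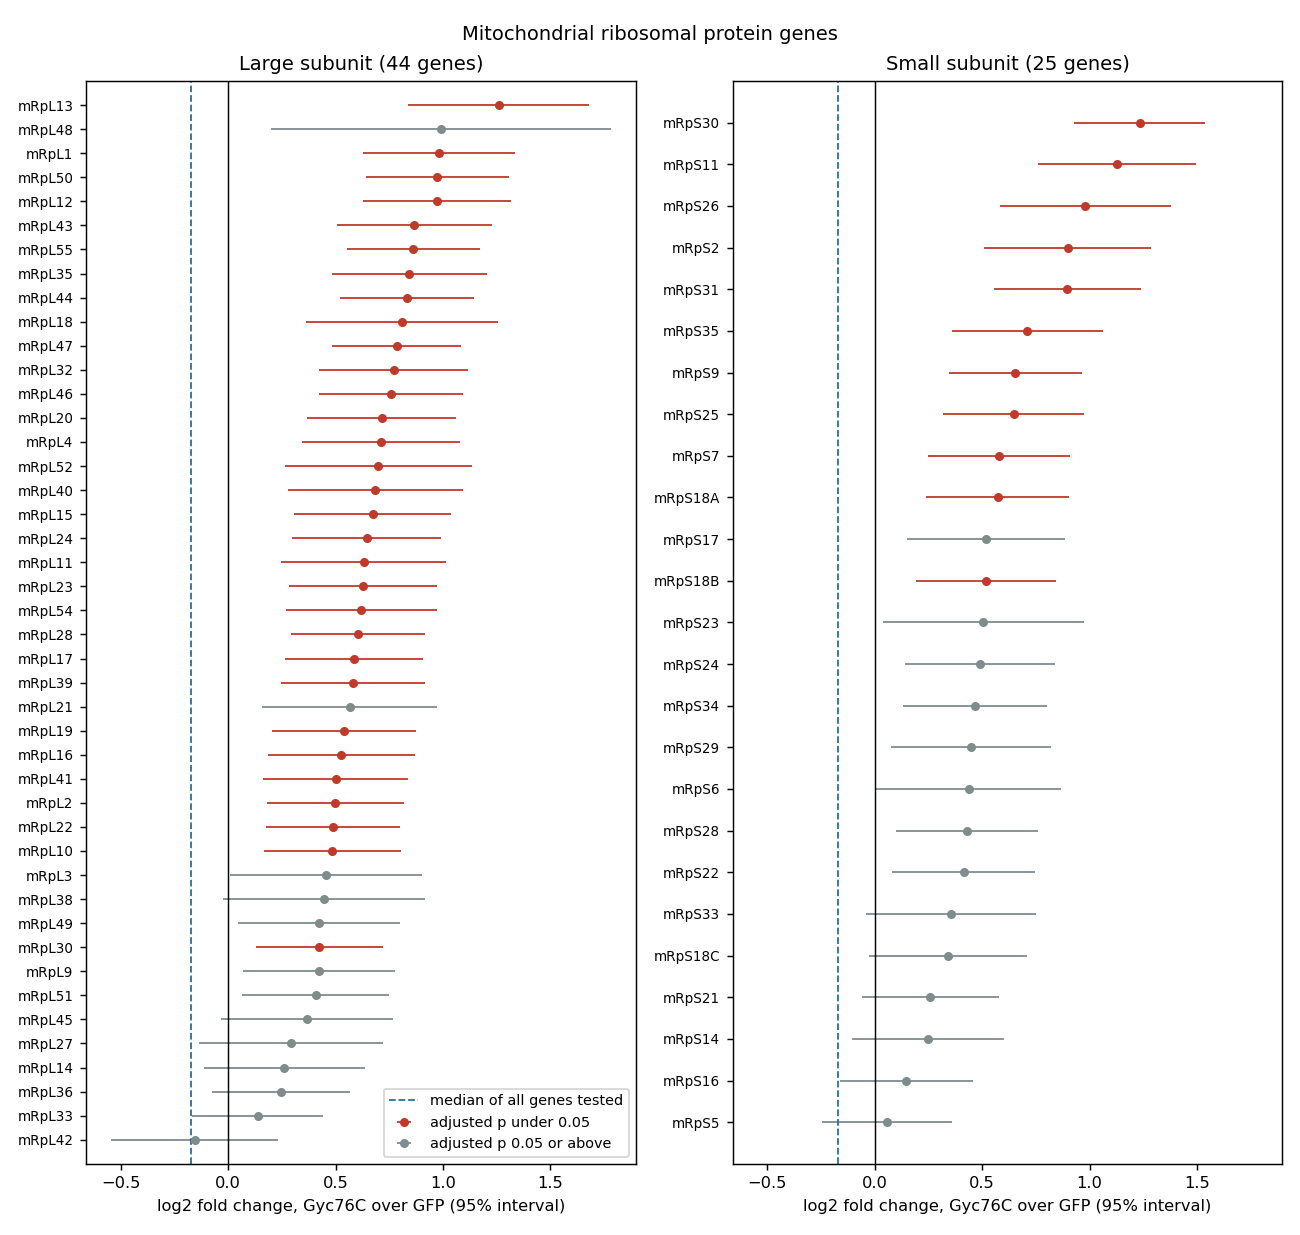
Log2 fold change of each of the 69 genes, Gyc76C over GFP larvae, with its 95% interval from limma (2 arrays per genotype). Red points passed an adjusted p of 0.05, grey points did not, and the dashed line is the median of all genes tested at -0.17. Points lie right of 0 for every gene but mRpL42.

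The number of calls changed most when a Gyc76C array was left out, which leaves 1 array in that group and takes the spread from the GFP arrays alone. Leaving out Gyc76C replicate 1 gave a count of 5 (5.17% of all genes being called higher), and leaving out Gyc76C replicate 2 gave 13 (6.97%). The median log2 fold change was 0.58 and 0.57 in these fits, while the median standard error of a member went from 0.14 to 0.26. Without a mean trend in the variance 11 members were called (5.48%), and 17 with the arrays centred as well (6.92%). Testing all genes with no filter on dim signals gave 40 (7.79%). The genes mRpL13, mRpL50, mRpS11, mRpS26 and mRpS30 were called in each of the 14 other fits tried.

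Members are described by the part of the ribosome to which each protein is assigned in bacterial or mammalian ribosomes, a grouping made after the values were seen. mRpL13, the homolog of an early assembling bacterial protein, had the largest change. It gave signals of 447 and 598 with GFP and of 1239 and 1237 with Gyc76C. The Gyc76C arrays were nearly equal and lay far above both GFP arrays (2.39-fold, adjusted p = 0.0046 at an SE of 0.18 for the log2 fold change of 1.26).

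The mobile stalks of the large subunit take part in the movement of tRNA and factors. mRpL1, the homolog of the bacterial L1 stalk protein, had signals of 430 and 470 with GFP and of 927 and 849 with Gyc76C (1.97-fold, adjusted p = 0.00584). mRpL12, which in bacteria forms the flexible stalk that recruits GTPase factors, had signals of 718 and 848 with GFP and of 1557 and 1504 with Gyc76C (1.96-fold, log2 SE 0.14, adjusted p = 0.00566). Both genes separated the genotypes fully, although without Gyc76C replicate 1 neither was called (adjusted p = 0.0574 for mRpL1 and 0.0502 for mRpL12). The stalk base proteins mRpL10 and mRpL11 rose less, by 1.40-fold and 1.55-fold (adjusted p = 0.042 and 0.0325).

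Around the peptidyl transferase centre, the site of peptide bond formation, 2 of 4 members rose. mRpL16 had a log2 fold change of 0.53 and mRpL2 of 0.50, whereas mRpL3 had 0.46 (adjusted p = 0.119) and mRpL27 had 0.29 (adjusted p = 0.271). mRpL27 gave signals of 623 and 762 with GFP and of 755 and 944 with Gyc76C, so its lower Gyc76C array lay under its higher GFP array. No member of this group reached 1.5-fold.

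Of 8 members that line or surround the peptide exit tunnel 7 rose, with a median log2 fold change of 0.64. mRpL32, mRpL4, mRpL24, mRpL23, mRpL17 and mRpL22 ran from 0.77 down to 0.49. mRpL45, which in mammals anchors the mitochondrial ribosome to the inner membrane, was the one not called (log2 fold change 0.37, adjusted p = 0.155). mRpL47, the mitochondrial relative of bacterial L29, was measured by a pair of probe sets that disagreed in the call. The brighter had signals of 1471 and 1388 with GFP and of 2503 and 2417 with Gyc76C (1.72-fold, adjusted p = 0.00707). The dimmer had 883 and 916 against 1028 and 1092 (1.18-fold, adjusted p = 0.231). In both the Gyc76C arrays lay above the GFP arrays. The transcripts that each probe set matches were not analysed here.

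The central protuberance of the mammalian mitochondrial ribosome is built partly from proteins with no bacterial counterpart. mRpL46, mRpL40 and the bacterial-type mRpL18 rose by 1.69-fold, 1.61-fold and 1.75-fold. mRpL48 had one of the largest changes but was not called. It gave signals of 159 and 324 with GFP and of 480 and 424 with Gyc76C. The GFP arrays differed by 2.04-fold, the widest replicate gap of any member, and the log2 fold change was 0.99 with an SE of 0.33 (adjusted p = 0.0717). mRpL38 had 0.45 (adjusted p = 0.141).

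The other 23 large subunit genes had a median log2 fold change of 0.58, and 15 of them rose. mRpL50, a protein found only in mitochondria, had signals of 467 and 449 with GFP and of 908 and 891 with Gyc76C (1.96-fold, log2 SE 0.14, adjusted p = 0.00498). mRpL44, which resembles RNase III enzymes, had 696 and 714 against 1256 and 1255 (1.78-fold, adjusted p = 0.00674). Replicates of these genes lay close together and far from the other genotype. mRpL43 rose 1.82-fold (375 and 362 against 700 and 644), mRpL55 rose 1.82-fold (780 and 821 against 1456 and 1454), and mRpL35 rose 1.80-fold (789 and 656 against 1319 and 1266). mRpL30 lay just inside the threshold, with 1516 and 1542 against 2012 and 2091 (1.34-fold, adjusted p = 0.049).

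At the low end were mRpL14, mRpL36 and mRpL33, with log2 fold changes of 0.26, 0.25 and 0.14, none of them called. mRpL42, found only in mitochondria, was the single member with a value under 0. It gave signals of 873 and 782 with GFP and of 823 and 668 with Gyc76C. The genotypes overlapped (log2 fold change -0.16, adjusted p = 0.511 at an SE of 0.16). With each array centred on its median its value was 0.0013.

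**Figure D2:**
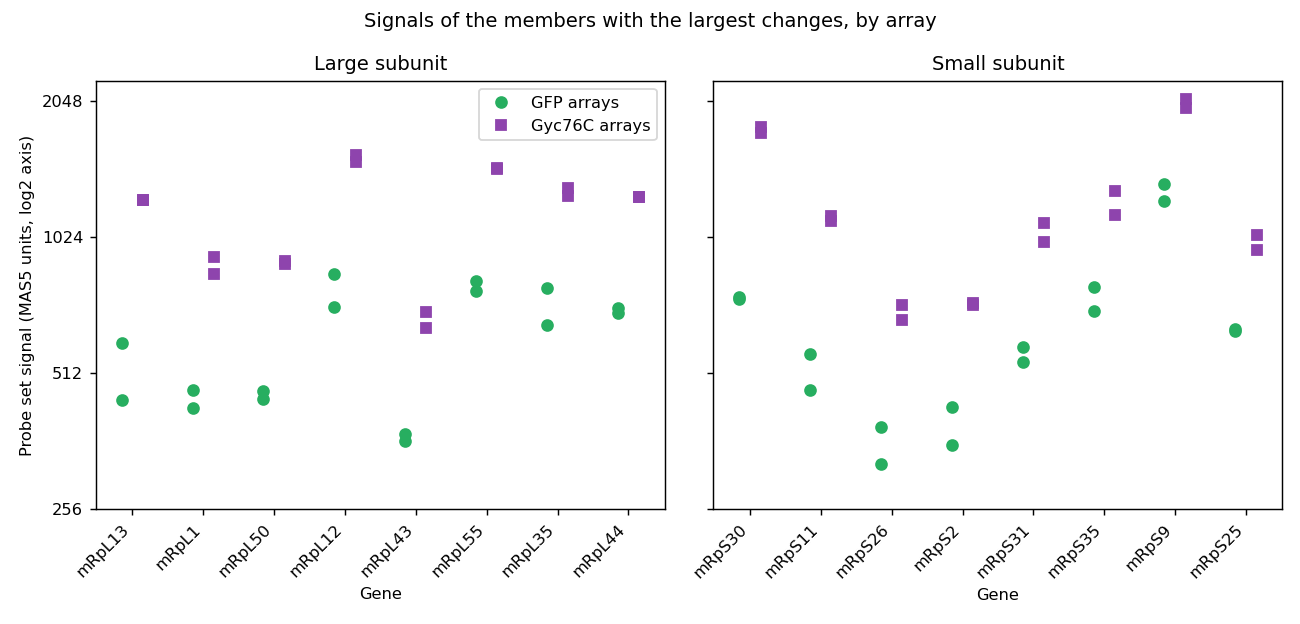
Signals on each of the 4 arrays, on a log2 axis, for the 8 called genes of each subunit with the largest changes. Circles are GFP arrays and squares are Gyc76C arrays, and for all 16 genes both squares lie above both circles.

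In the small subunit mRpS30 had the largest change, at signals of 746 and 757 with GFP and of 1794 and 1739 with Gyc76C (2.35-fold, log2 fold change 1.23, SE 0.13, adjusted p = 0.00168). Its lower Gyc76C array was 2.30 times its higher GFP array, the widest separation of any member. Despite its name, the mammalian counterpart of mRpS30 sits in the large subunit, in the central protuberance described above. mRpS18A, likewise a large subunit protein in mammals, rose 1.49-fold (adjusted p = 0.0282).

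The platform of the small subunit lies where the message leaves the ribosome. mRpS11, one of its proteins, was seen by a pair of probe sets that gave the same call. The brighter had signals of 470 and 565 with GFP and of 1144 and 1111 with Gyc76C (2.19-fold, log2 SE 0.15, adjusted p = 0.00431). The other had 520 and 432 against 948 and 932 (1.98-fold, adjusted p = 0.00691). The remaining platform members mRpS6, mRpS18C and mRpS21 were not called, with log2 fold changes of 0.44, 0.34 and 0.26.

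Of 8 members assigned to the head, which holds the tRNA anticodon arms, 4 rose and the median was 0.53. mRpS31, a mitochondria-specific protein, had signals of 585 and 543 with GFP and of 1101 and 999 with Gyc76C (1.86-fold, log2 SE 0.14, adjusted p = 0.00703). mRpS35 had 704 and 794 against 1300 and 1150 (1.64-fold, adjusted p = 0.0169), and mRpS9 had 1345 and 1230 against 2069 and 1979 (1.57-fold, adjusted p = 0.0146). The genotypes were apart for each of the 8. mRpS7 rose 1.49-fold, while mRpS29, the GTP-binding protein also known as DAP3, had a log2 fold change of 0.45 and was not called (adjusted p = 0.0794).

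Of 3 members assigned here to the body, a partial list since 9 small subunit genes were given no place, 0 were called by limma, with an unadjusted p under 0.05 for mRpS17 alone. mRpS17 lay just outside the threshold, at signals of 611 and 521 with GFP and of 837 and 779 with Gyc76C (1.43-fold, adjusted p = 0.0519), and was called in 6 of the other fits. mRpS16 had a log2 fold change of 0.15. mRpS5, which lines the entry of the message channel, had 3213 and 3125 against 3464 and 3145 (log2 fold change 0.06, SE 0.13, adjusted p = 0.762), and its genotypes overlapped.

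The other small subunit genes had a median log2 fold change of 0.52 and 5 of 9 rose. mRpS26, with no bacterial counterpart, had signals of 389 and 322 with GFP and of 672 and 726 with Gyc76C (1.97-fold, adjusted p = 0.00883). mRpS2, of bacterial type, had 431 and 355 against 725 and 733 (1.86-fold, adjusted p = 0.0109). mRpS25 had 640 and 636 against 962 and 1037 (1.57-fold, adjusted p = 0.018). Each of these separated the genotypes fully. The calls of mRpS2 and mRpS25 ended without Gyc76C replicate 1 (adjusted p = 0.0702 and 0.115), without Gyc76C replicate 2 (0.0536 and 0.139) and without a mean trend (0.0518 and 0.0688).

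The subunits were then set side by side. In the large subunit 31 of 44 genes rose (70.5%) and in the small subunit 11 of 25 (44%), with median log2 fold changes of 0.61 and 0.51. The order of the shares was not kept in every fit. It turned without Gyc76C replicate 1 and was kept without Gyc76C replicate 2. Without a mean trend the shares were near equal, at 7 of 44 and 4 of 25. The medians thus differed by 0.11, and this difference was between 0.045 and 0.13 when single arrays were left out, the lowest when GFP replicate 1 was omitted, and 0.065 when Gyc76C replicate 2 was. The mean log2 signal of the large subunit minus that of the small was -0.23 and -0.12 on the GFP arrays and -0.13 and -0.12 on the Gyc76C arrays. GFP replicate 2 lay between the Gyc76C arrays and GFP replicate 1 below them, so the genotypes overlapped, and the gap between the GFP arrays was as wide as the difference of the medians. With 2 arrays per genotype an exact permutation test cannot go below p = 0.333, and no test of the subunits against each other was made. Counting mRpS30 and mRpS18A with the large subunit, as in mammals, gave medians of 0.61 and 0.49 and calls in 33 of 46 and 9 of 23 genes.

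**Figure D3:**
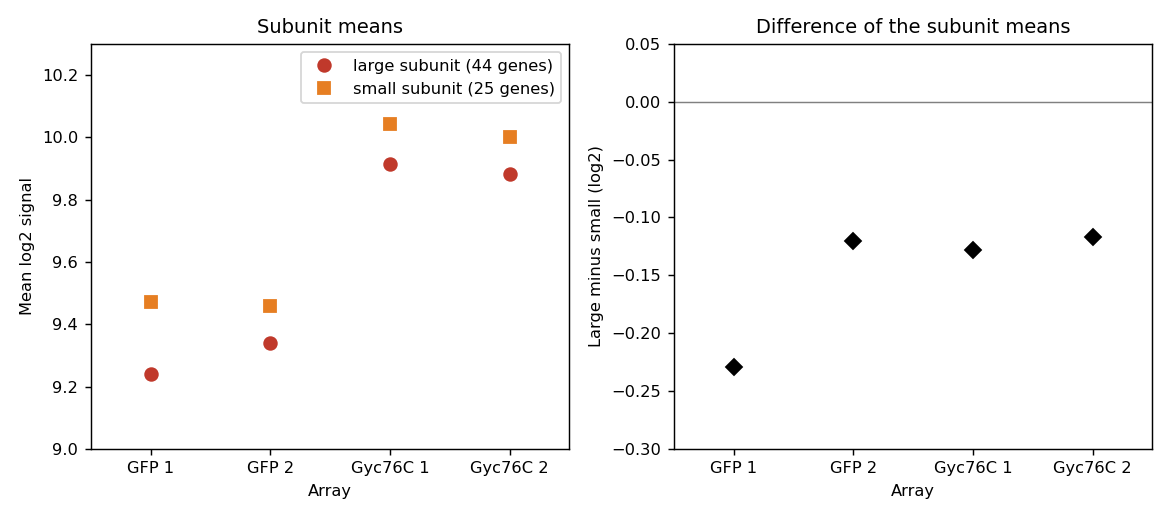
Left, the mean log2 signal of the 44 large and 25 small subunit genes on each array, which lies higher on both Gyc76C arrays for either subunit; probe sets differ in sensitivity, so the offset between subunits is not a difference in amount. Right, the large minus the small mean, at -0.23 on GFP replicate 1 and between -0.13 and -0.12 on the other arrays.

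Members were also divided by descent. A gene counted as bacterial-type when its number belongs to the bacterial series, together with mRpL47, mRpS24 and mRpS28, whose mammalian relatives are assigned bacterial counterparts, and mRpS18A and mRpS18B were counted as mitochondria-specific. Of 41 bacterial-type genes 25 rose (61.0%), and of 28 mitochondria-specific genes 17 rose (60.7%), with medians of 0.54 and 0.60. Within the large subunit the shares were 21 of 28 and 10 of 16, and within the small subunit 4 of 13 and 7 of 12. Across the 69 genes the log2 fold change went little with the mean signal (Pearson r = -0.17, Spearman rho = -0.11; across genes that share the same arrays, which are not independent replicates).

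Mitochondrial ribosomal proteins under other names were looked up as well. bonsai, the S15 protein of the small subunit, had signals of 730 and 765 with GFP and of 1595 and 1529 with Gyc76C (2.09-fold, log2 fold change 1.06, SE 0.13, adjusted p = 0.00294). tko, the S12 protein of the decoding site, had 1166 and 1333 against 1556 and 1560 (1.25-fold, adjusted p = 0.128). For both the Gyc76C arrays lay above the GFP arrays, but tko was not called. With GFP replicate 2 left out it passed (adjusted p = 0.0459), as it did with arrays centred (0.0449). CG4866 was added after the other values were seen, on the basis of a RefSeq synonym, mRpS4. Whether it encodes a mitochondrial ribosomal protein was not checked. Its signals were 367 and 391 against 357 and 405, and its log2 fold change was 0.0044 (adjusted p = 0.988).

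Probe sets that a member shares with another gene were kept apart. One annotated to mRpS10 and CG34316 together had signals of 451 and 434 with GFP and of 743 and 662 with Gyc76C (1.58-fold, adjusted p = 0.0225). The probe set of CG34316 alone went the other way, with 1626 and 944 against 349 and 348 (log2 fold change -1.83, adjusted p = 0.0046). The shared probe set was thus higher in Gyc76C larvae and the CG34316 probe set lower. One annotated to mRpL53 and CG33155 had 2080 and 1864 against 2397 and 2195 and was not called (log2 fold change 0.22, adjusted p = 0.265).

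Other genes of mitochondrial translation were mostly above 0, with few calls. Over all genes 39.2% had a log2 fold change above 0 and 11.6% were called higher. Of 11 translation factors 2 rose and 0 fell, and all 11 had a log2 fold change above 0, with a median of 0.41. mEFTu1, an elongation factor that delivers aminoacyl-tRNA, had signals of 898 and 1064 with GFP and of 1929 and 1823 with Gyc76C (1.92-fold), and mEFG1, the translocation factor, rose 1.66-fold. Of 15 mitochondrial aminoacyl-tRNA synthetases 1 rose, AsnRS-m, from 94.7 and 98.6 to 204 and 199, while all 15 had a log2 fold change above 0 (median 0.30). These probe sets had a lower mean log2 signal than the ribosomal ones, at 7.42 and 7.33 on the GFP arrays for the synthetases against 9.24 and 9.34 for the large subunit.

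Among 18 genes for the upkeep of mitochondrial DNA and RNA 3 rose (16.7%, beside 11.6% of all genes), and the median was 0.55. They were bsf, a stabiliser of mitochondrial messages, at signals of 202 and 337 with GFP and of 621 and 521 with Gyc76C, the exoribonuclease gene PNPase at 1.61-fold, and mtSSB, which binds single-stranded mitochondrial DNA, at 1.44-fold. TFAM, which packages mitochondrial DNA, had a log2 fold change of -0.0084 and was not called. Of 15 protein import genes 3 rose (20%) and 0 fell, 9 had a value above 0 (39.2% of all genes did), and the median was 0.15. In 5 of them both Gyc76C arrays were below both GFP arrays, as in 42.6% of all genes. Among these 5 were Tim17a1, Tim17b1 and Tim17b2 at 0.41-fold, 0.46-fold and 0.47-fold, none of them called. Tim17a1 was dim, at 26.6 and 46.6 on the Gyc76C arrays beside a filter level of 46.3. Tom40, the pore of the outer membrane, rose 2.11-fold, and blp and ttm50 rose 1.78-fold and 1.63-fold.

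Many of the listed nuclear genes of oxidative phosphorylation encode partners of the subunits that this ribosome makes. The complex II genes SdhB, SdhC and SdhD, also in the list, do not. Many of the listed genes rose. Leaving out copies whose names end in L, a split made after the values were seen, 31 of 55 rose (56.4%) and 0 fell, with a median log2 fold change of 0.58. The complex I genes ND-SGDH, ND-18 and ND-B14 rose 2.69-fold, 2.19-fold and 2.06-fold. Of 14 tested L copies 0 rose and 3 fell, namely COX6CL, UQCR-11L and COX5BL. Of all genes 11.6% were called higher and 14% lower. The full list, both kinds together, had 31 of 69 higher, 3 lower and a median of 0.46.

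Few of the listed genes of the cytoplasmic ribosome were called. Of 39 listed cytoplasmic ribosomal protein genes 1 rose (2.56%, against 11.6% of all genes), RpL34a at 1.49-fold, and 0 fell. Their median log2 fold change was -0.14 beside -0.17 for all genes. The list was not split by copy and does not cover the whole cytoplasmic ribosome. For example, RpL4, RpL5, RpS3 and RpS6 are not in the list. It mixes genes named -like and dim copies such as RpS10a (mean signals of 106 with GFP and 58.8 with Gyc76C) with very bright genes. RpL41 had means of 40735 and 33288, where the highest signal on any array was 48176. The Gyc76C arrays exceeded the GFP arrays without overlap in 3 of the 39, in 66 of 69 mitochondrial ribosomal genes and in 26.7% of all genes. Of 16 genes of nucleolar ribosome biogenesis 1 rose, the fibrillarin gene Fib at 1.41-fold (median 0.15), and of 15 cytosolic aminoacyl-tRNA synthetases 2 rose, IleRS and ValRS (median 0.17).

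**Figure D4:**
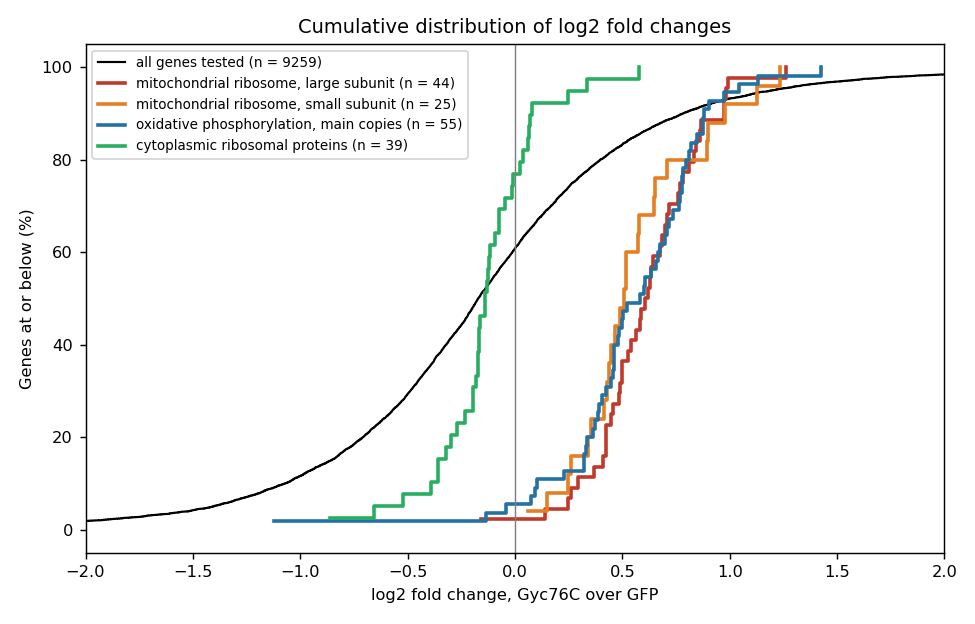
Cumulative distribution of log2 fold changes for both subunits of the mitochondrial ribosome, oxidative phosphorylation without L copies, cytoplasmic ribosomal proteins and all genes tested; the axis is limited to changes within 2 log2 units. The curves of the mitochondrial groups lie to the right, with medians of 0.61, 0.51 and 0.58. The listed cytoplasmic ribosomal protein genes, a partial list, have a median of -0.14, beside -0.17 for all genes.

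**Figure D5:**
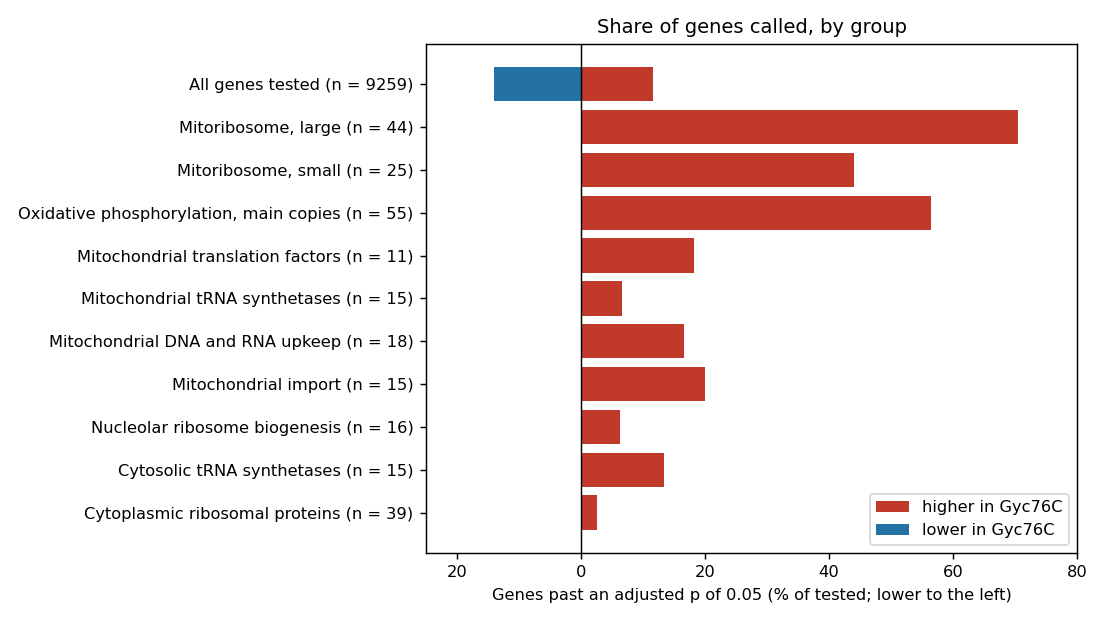
Share of the tested genes of each group called higher (right) or lower (left) in Gyc76C larvae at a limma adjusted p under 0.05. The large subunit stands at 70.5% and the small subunit at 44%, against 11.6% of all genes called higher. The share is 2.56% for the listed cytoplasmic ribosomal protein genes, a partial list.

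Of a list of 6 genes tied to the control of mitochondria or of their nuclear genes 1 rose and 1 fell, beside 11.6% and 14% of all genes. clu, which binds messages of mitochondrial proteins, rose 1.57-fold, at signals of 793 and 767 with GFP and of 1246 and 1198 with Gyc76C. ewg, the fly homolog of the factor NRF1, fell from 211 and 333 to 124 and 137 (log2 fold change -1.02, adjusted p = 0.0386). Dref, Ets97D, crc and Pink1 were not called, with log2 fold changes of 0.28, -0.54, -0.35 and -0.21.

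Whole larvae mix tissues, and in such samples a change in the share of a cell type and a change in RNA per cell cannot be told apart. The background for the marker counts below is 11.6% of all genes called higher and 14% called lower. Of 7 muscle markers 4 rose, sls, Mlc2, bt and Tm2. Act87E (1.68-fold), up (1.38-fold) and Mlc1 (1.05-fold, with overlapping arrays) were not called. The summed signal of the 7 was 56308 to 72183 on GFP arrays and 89821 to 100773 on Gyc76C arrays. Of 4 fat body markers 2 fell, Fbp1 and Fbp2, and the summed signal of the 4 was 132734 to 135658 against 88849 to 105332. Lsp2 was not called (0.78-fold), nor was apolpp, which was higher on the Gyc76C arrays (22238 and 16612 against 23464 and 27809, 1.33-fold, adjusted p = 0.157). All 6 salivary glue genes fell, from a sum of 179054 to 192434 to one of 18153 to 21244. Of 9 midgut markers 1 rose (11.1%, near the share of all genes) and 1 fell, and the sums overlapped (165708 to 188485 against 154571 to 188703). Of 7 markers of imaginal discs and dividing cells 0 were called by limma, with sums of 2982 to 2988 against 2478 to 2746, and of 4 tested haemocyte markers 1 fell, with overlapping sums. No marker is at 0, since MAS5 gives a signal to every probe set. What lies behind these differences in the markers, and their part in the rise of the mitochondrial ribosomal genes, was not tested.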

How the data were processed

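Total RNA of whole larvae was labelled as biotinylated cRNA and hybridised to 1-colour Affymetrix arrays, 2 for each of the 2 genotypes, and samples were grouped by their titles. Deposited by the authors is 1 linear intensity per probe set and array, computed by MAS5 (version not stated), per the submitters' processing notes. The sources used here give no genome build. Signals ran from 0.358 to 48176, the trimmed mean left out 2% at each end, and every value column belonged to a sample. MAS5 assigns every probe set some signal, so dim signals scatter widely; the number of arrays limits the precision.

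The 183 control probe sets were left out. Of the other 18769, 13647 had 1 gene symbol in the platform annotation, 402 several and 4720 none; all 71 member probe sets matched RefSeq (Release 6) by gene number with 0 differing symbols. Log2 values were taken with no pseudocount. Probe sets with a mean at or above the 40th percentile were kept. limma (3.58.1 in R 4.3.3) was fitted (lmFit, then eBayes with trend) without a replicate block, and p-values are two-sided with Benjamini-Hochberg adjustment over all 11261 probe sets. The fit was tested on simulated data. Folds are ratios of geometric means. The labels' replicas may be separate pools of larvae or not, so p-values measure the spread between these samples. Samples with the same replicate number did not deviate together (r = 0.044 over probe sets, 2 pairs), so the numbers were not taken to pair them.

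Named members are the 8 called genes of each subunit with the largest change, members at 0 or below, those with disagreeing probe sets and those on either side of the threshold; others named were chosen after their values were seen, as were the parts of the ribosome. Of other lists up to 3 called genes are named, and 4 for muscle. The members, lists and tests were chosen with earlier results of these data known, so lists are described by counts and medians and not tested. Other scalings, filters, variance priors, a replicate block, gene means and leaving out each array were tried.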

Additional observations from a re-analysis of the deposited data

How the results depend on the processing

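The count of members called higher stayed within 1.5 times of 42 in the following fits, given with the share of all genes called higher. It was 55 with arrays centred (15.3%) and 45 with quantile normalization (13.1%). A filter at the 60th percentile gave 47 (16.7%), and no filter gave 40 (7.79%). Low signals raised to the filter level gave 42 (11.4%), a robust prior 44 (11.8%) and gene means 42 (11.5%). The share moved with the setting, as the count did. The count was 11 without a mean trend (5.48% of all genes), with 7 large and 4 small subunit genes. It was 17 (12 and 5, beside 6.92% of all genes) with centring as well, an alternative chosen after seeing the data. Leaving out single arrays gave 5 to 50 members, 2 to 36 of the large and 3 to 14 of the small subunit. In all of these fits 0 members were called lower. Centred arrays gave 18 small subunit calls and medians of 0.73 for all members, 0.77 for the large and 0.66 for the small subunit, and quantile normalization gave 0.64, 0.71 and 0.60; the median of all genes went from -0.17 to -0.014 and -0.040 in these fits. The large subunit median was 0.57 to 0.64 with single arrays left out, and the difference of the medians 0.045 to 0.13. mRpL42 turned to 0.0013 with centred arrays, and CG4866 ran from -0.088 to 0.096 with single arrays left out. With the replicate number as a block, which the data do not bear out as a pairing, 45 members were called (32 large and 13 small), among them all 42, and mRpS17 passed (adjusted p = 0.0353); of the 23 genes followed singly no other call changed. The calls of mRpL1, mRpL12, mRpL43, mRpL55, mRpL35, mRpL44, mRpS2, mRpS31, mRpS35, mRpS9, mRpS25, mRpL47 and mRpL30 ended without Gyc76C replicate 1 (adjusted p from 0.0502 to 0.26). Those of mRpS2, mRpS35, mRpS9, mRpS25 and mRpL30 ended without Gyc76C replicate 2 (0.0536 to 0.275). Those of mRpL35, mRpS2, mRpS35, mRpS9, mRpS25, mRpL47 and mRpL30 ended without a mean trend (0.0502 to 0.129). The cause was not tested. mRpL48, the dimmest member on the GFP arrays, had the largest SE (0.33).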

Other observations

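The members lie scattered among other genes in the RefSeq gene order, with 0 pairs of members directly beside each other. Calls among their directly neighbouring protein-coding genes were near the background: of 112 tested neighbours 11 were higher (9.82%, against 11.6% of all genes) and 16 lower (14% of all genes were), with a median log2 fold change of -0.16 beside -0.17. Single neighbours did rise, such as the ATP synthase gene ATPsynD beside mRpL55 (log2 fold change 0.88 beside 0.86) and CG10602 beside mRpL13 (0.51 beside 1.26), whereas the fungal sensor gene GNBP3 beside mRpL12 fell by 0.86 on the log2 scale. These neighbours were picked after their values were seen.

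Between arrays, the mean log2 signal of the members differed by 0.058 between the GFP arrays and by 0.036 between the Gyc76C arrays. It differed by 0.59 between the genotypes. By the median ratio of the brighter to the dimmer replicate, the members were closer within either genotype than all tested probe sets. Array medians, which do not show how close single genes were, also lay near each other within a genotype. The median log2 signal of all tested probe sets was 8.33 and 8.38 on the GFP arrays and 8.19 and 8.21 on the Gyc76C arrays.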
